A study of Rattus norvegicus with 12 samples.

Results

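Neonatal rat cardiomyocyte cultures given the plasticiser di(2-ethylhexyl) phthalate (DEHP) at 10 µg/ml were compared directly with those given 1 µg/ml, without use of the vehicle arrays. The comparison took 6 of the 12 arrays of the series by their titles, 3 arrays at each of these doses, and no measured value entered that choice. Cells were isolated enzymatically from the hearts of Sprague-Dawley pups aged 2 days, plated on coverslips and grown for 3 days before DEHP was added for a further 3 days. Cultures of both doses carried 0.1% dimethyl sulphoxide, the solvent of the compound. The other 6 arrays, 3 of the vehicle (0.1% dimethyl sulphoxide) and 3 of DEHP at 50 µg/ml, entered the estimate of the spread between arrays and are given as reference values. Replicates within a dose are biological according to the series design, but every culture came from the same litter, and p-values therefore measure only how cultures of that litter varied.

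DEHP softens polyvinyl chloride and leaches from medical tubing and blood bags. In rodent liver its metabolites activate the peroxisome proliferator receptors (PPARs), which switch on fatty acid oxidation. Immediate early genes such as Fos and Egr1 are transcribed within minutes of a stimulus by factors that already sit in the cell, among them the serum response factor at the CArG box and CREB at the cAMP response element. Their RNA is short-lived, so its level follows recent signalling through the MAP kinases.

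Of 14324 genes, 683 were higher and 1318 were lower at 10 than at 1 µg/ml under limma at an adjusted p of 0.05, which is 14.0% of the genes tested, 4.77% higher and 9.20% lower. Values are log2 of the deposited ratio of each array to the median of the 12 arrays, and a difference is 10 minus 1 µg/ml with its standard error, n = 3 arrays at each dose. No source used here records the direction of that ratio, and with the ratio turned every sign given here would change. The ratios carry no level, so whether a gene lay near background, and whether the defining genes of heart muscle were present, could not be read from them. Over the 27342 probe sets, named or not, 2722 passed (9.96%), 4.25% higher and 5.70% lower. Most differences were small: 1902 of the 2001 changed genes moved by less than 1.5-fold and 8 moved by more than 2-fold, 4 up (Vof16, Ddit4, G0s2 and Spaca6) and 4 down (Fos, Myh3, Or51e1 and Scg2). Without regard to sign, the smallest difference that passed was 0.13, and the largest that did not pass was 0.78, that of the complement component C3 (adjusted p = 0.0532). Under the same fit 608 genes (4.24%) differed between 1 µg/ml and the vehicle. None of the 14324 genes (0) differed between 10 µg/ml and the vehicle at the adjusted threshold. At an unadjusted p of 0.05, which a share of about 0.05 would pass if no gene differed, 899 passed. These contrasts share arrays with the comparison of the doses, so their values are only set beside it.

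The array of 10 µg/ml replicate 2 stood apart from the other arrays of its group. Its values were the outermost of the group in 51.5% of genes, and its root mean square deviation from the group mean was 0.119, against 0.059 to 0.093 for the other 11 arrays. The count of changed genes was 880 without this array, 944 without 1 µg/ml replicate 1 and 820 without 1 µg/ml replicate 3. Of the 880, 845 were also among the 2001, and no gene of the 2001 changed sign in any of the 12 omissions of an array. Genes named below as changed kept the call in each of the 12 omissions unless a loss, or that this is not given, is stated beside them. The calls rest on a spread estimated over all 12 arrays, and with only the 6 arrays compared in the fit 697 genes passed. Losses in that fit and under the other alternatives are not listed gene by gene.

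**Figure D1:**
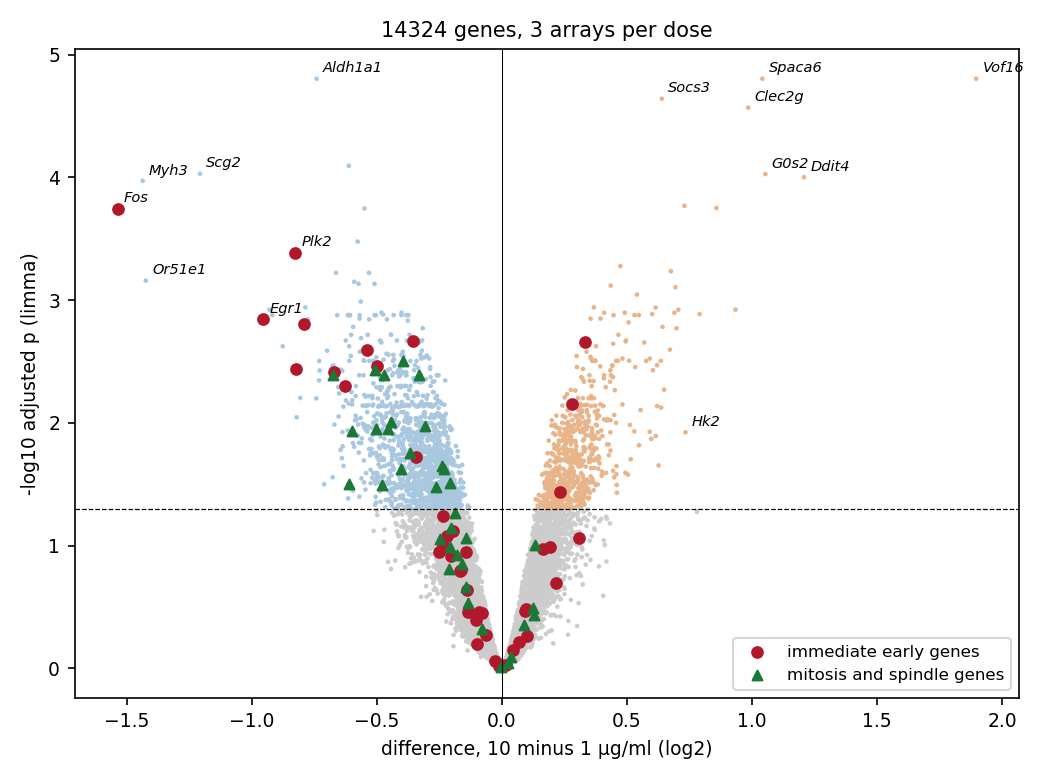
Each point is 1 of 14324 genes, with the log2 difference (10 minus 1 µg/ml, 3 arrays per dose) on the horizontal axis and -log10 of the limma adjusted p on the vertical axis; the dashed line is adjusted p 0.05, and orange and pale blue points are the 683 genes higher and 1318 lower at 10 µg/ml. Of 44 immediate early genes (red circles) 11 lie below 0 and past the line, and of 36 mitosis genes (green triangles) 18 do, with 0 mitosis genes past it on the right.

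Promoter sequences of leading genes are shown first, as examples of those that hold a motif named above or the hypoxia core. The 250 bases before the start of transcription were taken from RefSeq (GRCr8 assembly). Only genes with exactly 1 promoter entry there were matched, 11 of the 15 with the largest falls and 13 of the 15 with the largest rises. Fos, Pbk, Ier3 and Slc7a3 among the falls and N5 and Rsrp1 among the rises were not matched, so their promoters were not searched. The share over all rat promoters counts every entry, also those of genes with several, so it is not taken over a like set. The cAMP response element, TGACGTCA, was searched on both strands and stood in 4 of the 11 matched falls (Scg2, Ankrd49, Plk2 and Gpcpd1), in 0 of the 13 matched rises and in 1.59% of 33469 rat promoters. It lay 123 bases before the start in Scg2, 87 in Ankrd49, 66 in Plk2 and 130 in Gpcpd1. A CArG box stood in 3 of the 11 (Egr1, Egr2 and Ankrd49), in 0 of the 13 and in 1.5% of all promoters. Egr1 held a pair of them, 105 and 83 bases before the start. Of the 11 immediate early genes that fell 7 were matched, 3 of which are also among the leading falls, and the cAMP response element stood in 1 (Plk2) and a CArG box in 2 (Egr1 and Egr2) of these 7. Plk2 (chr2:43702286-43702535, plus strand), Scg2 (chr9:88256867-88257116, minus strand) and Egr2 (chr20:21054442-21054691, minus strand) are written 5′ to 3′ below, with the cAMP response element of Plk2 and Scg2 and the CArG box of Egr2 in capitals. A match describes these letters and not the binding of a factor.
Plk2: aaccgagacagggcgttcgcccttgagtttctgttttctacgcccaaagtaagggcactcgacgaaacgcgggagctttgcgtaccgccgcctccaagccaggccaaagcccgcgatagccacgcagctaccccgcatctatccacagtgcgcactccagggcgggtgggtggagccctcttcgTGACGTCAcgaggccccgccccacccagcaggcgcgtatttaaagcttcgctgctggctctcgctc
Scg2: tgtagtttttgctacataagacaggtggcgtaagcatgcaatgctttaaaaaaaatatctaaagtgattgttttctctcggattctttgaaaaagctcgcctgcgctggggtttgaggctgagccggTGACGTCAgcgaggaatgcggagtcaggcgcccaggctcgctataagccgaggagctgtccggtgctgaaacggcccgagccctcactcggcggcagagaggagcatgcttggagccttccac
Egr2: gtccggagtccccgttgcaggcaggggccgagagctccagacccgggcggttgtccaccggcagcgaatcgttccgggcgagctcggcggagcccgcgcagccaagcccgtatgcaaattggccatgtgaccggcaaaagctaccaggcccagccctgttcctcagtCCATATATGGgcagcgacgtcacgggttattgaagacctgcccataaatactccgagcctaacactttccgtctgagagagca

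Among the rises, the core of the hypoxia response element, ACGTG on either strand, stood in 4 of the 13 matched promoters (Ddit4, Acer2, Pfkfb3 and Ddit3), in 2 of the 11 matched falls (Myh3 and Egr1) and in 16.57% of all promoters. In Pfkfb3 both strands of the core fall within an E-box, CACGTG, 42 bases before the start, and 5.59% of all promoters held an E-box. The AP-1 site TGANTCA, the motif of Fos and Jun dimers, was in the promoter of Ddit3 alone among the matched rises and in 0 of the 11 matched falls, against 6.34% of all promoters. The Egr motif (GCGGGGGCG or GCGTGGGCG) was in none of the 24 (0), against 2.85% of all. Of the 7 matched immediate early genes that fell, 1 (Nr4a1) held the Egr motif, 73 bases before the start, and 1 (Ptgs2) held an E-box. The promoter of Mafk, an immediate early gene that rose, held both. Ddit4 (chr20:28437038-28437287, minus strand) and Pfkfb3 (chr17:71944683-71944932, plus strand) follow, with the hypoxia core and the E-box in capitals.
Ddit4: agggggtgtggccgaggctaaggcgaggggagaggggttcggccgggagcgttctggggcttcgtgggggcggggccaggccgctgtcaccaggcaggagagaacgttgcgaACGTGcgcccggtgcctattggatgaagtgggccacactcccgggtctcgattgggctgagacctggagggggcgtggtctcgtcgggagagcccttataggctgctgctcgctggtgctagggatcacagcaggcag
Pfkfb3: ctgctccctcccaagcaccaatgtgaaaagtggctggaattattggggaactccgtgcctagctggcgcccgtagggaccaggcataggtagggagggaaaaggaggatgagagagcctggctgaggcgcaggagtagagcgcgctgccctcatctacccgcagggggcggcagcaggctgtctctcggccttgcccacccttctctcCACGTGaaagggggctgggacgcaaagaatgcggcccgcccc

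The largest rise was that of Vof16, a rat transcript named as an ischaemia-related factor. Its log2 ratios were -0.67, -0.72 and -0.83 at 1 µg/ml and 1.31, 0.90 and 1.25 at 10 µg/ml. All 3 arrays of the lower dose lay below the median of the series and all 3 of the higher dose above it. The difference was 1.90 ± 0.13, or 3.72-fold (limma, adjusted p = 1.57e-05). The vehicle mean of 0.97 was near the values of 10 µg/ml, and the mean at 50 µg/ml, -0.88, was near those of 1 µg/ml.

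Ddit4 encodes an inhibitor of mTORC1 that is induced by hypoxia, glucocorticoids and energy stress. It stood at -0.49, -0.64 and -0.58 at 1 µg/ml and at 0.50, 0.83 and 0.58 at 10 µg/ml, without overlap. It rose by 1.21 ± 0.11, or 2.31-fold (adjusted p = 9.98e-05). G0s2, which encodes an inhibitor of the triglyceride lipase Pnpla2, rose by 1.05 ± 0.09, from -0.46, -0.56 and -0.61 to 0.43, 0.61 and 0.48. Spaca6, known for its part in the fusion of sperm and egg, rose by 1.04 ± 0.07 on the mean of its 3 probe sets. The lectin-like receptor gene Clec2g rose by 0.98 ± 0.07, Cep295nl by 0.93 ± 0.12 and Acer2, an alkaline ceramidase that releases sphingosine, by 0.86 ± 0.08. The hexokinase gene Hk2, whose product commits glucose to the cell, rose by 0.73 ± 0.16. Its arrays were -0.52, -0.64 and -0.53 at 1 µg/ml and 0.07, 0.02 and 0.41 at 10 µg/ml, so the lowest array of the higher dose was 10 µg/ml replicate 2. The other genes among the 15 largest rises were N5, Rsrp1, Mfsd12, Pfkfb3, Lipogenin, Hils1 and Ddit3, at 0.68 to 0.79.

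The largest fall was that of Fos, the transcription factor that pairs with Jun to form AP-1. Fos stood at 1.08, 1.28 and 0.75 at 1 µg/ml and at -0.45, -0.50 and -0.54 at 10 µg/ml. The 3 arrays of the higher dose lay within 0.1 of each other, and the vehicle mean was -0.52. Fos fell by 1.54 ± 0.15, so that it was 2.90-fold higher at 1 µg/ml (adjusted p = 0.000179). Myh3, the embryonic myosin heavy chain, fell by 1.44 ± 0.13, from 1.18, 0.85 and 1.25 to -0.43, -0.34 and -0.27. Its vehicle mean of 0.54 lay between the doses, and its mean at 50 µg/ml was -0.85.

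Or51e1, an olfactory receptor gene, fell by 1.42 ± 0.16, with 10 µg/ml replicate 2 the lowest of its arrays at -0.89 against -0.33 and -0.14. Scg2 encodes secretogranin, a granin of dense core vesicles, and stood at 0.95, 0.96 and 0.99 at 1 µg/ml and at -0.11, -0.43 and -0.19 at 10 µg/ml. It fell by 1.21 ± 0.10 (adjusted p = 9.34e-05), its vehicle mean was 0.33 and its mean at 50 µg/ml was -1.58. Scg2, Myh3, Or51e1 and Prss3bl1 thus had the order 1 µg/ml, vehicle, 10 µg/ml and 50 µg/ml in their means, from highest to lowest, while Fos, Egr1, Egr2, Plk2 and Ier3 had means above 0 at 1 and 50 µg/ml and below 0 in the vehicle and at 10 µg/ml. The other falls among the leading 15 were Tmtc2, Prss3bl1, Ankrd49, the mitotic kinase Pbk, Magt1, the cationic amino acid transporter Slc7a3 and the phosphodiesterase Gpcpd1, at -0.93 to -0.78. The rule that named these 30 genes required the 3 arrays of one dose to lie on one side of the 3 of the other. Arrays lay so in 30.4% of all genes (13.1% higher and 17.3% lower), so the separation of these 30 is no added support. It held in 1975 of the 2001 changed genes (98.7%), so a lack of overlap stated for any changed gene adds none either.

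**Figure D2:**
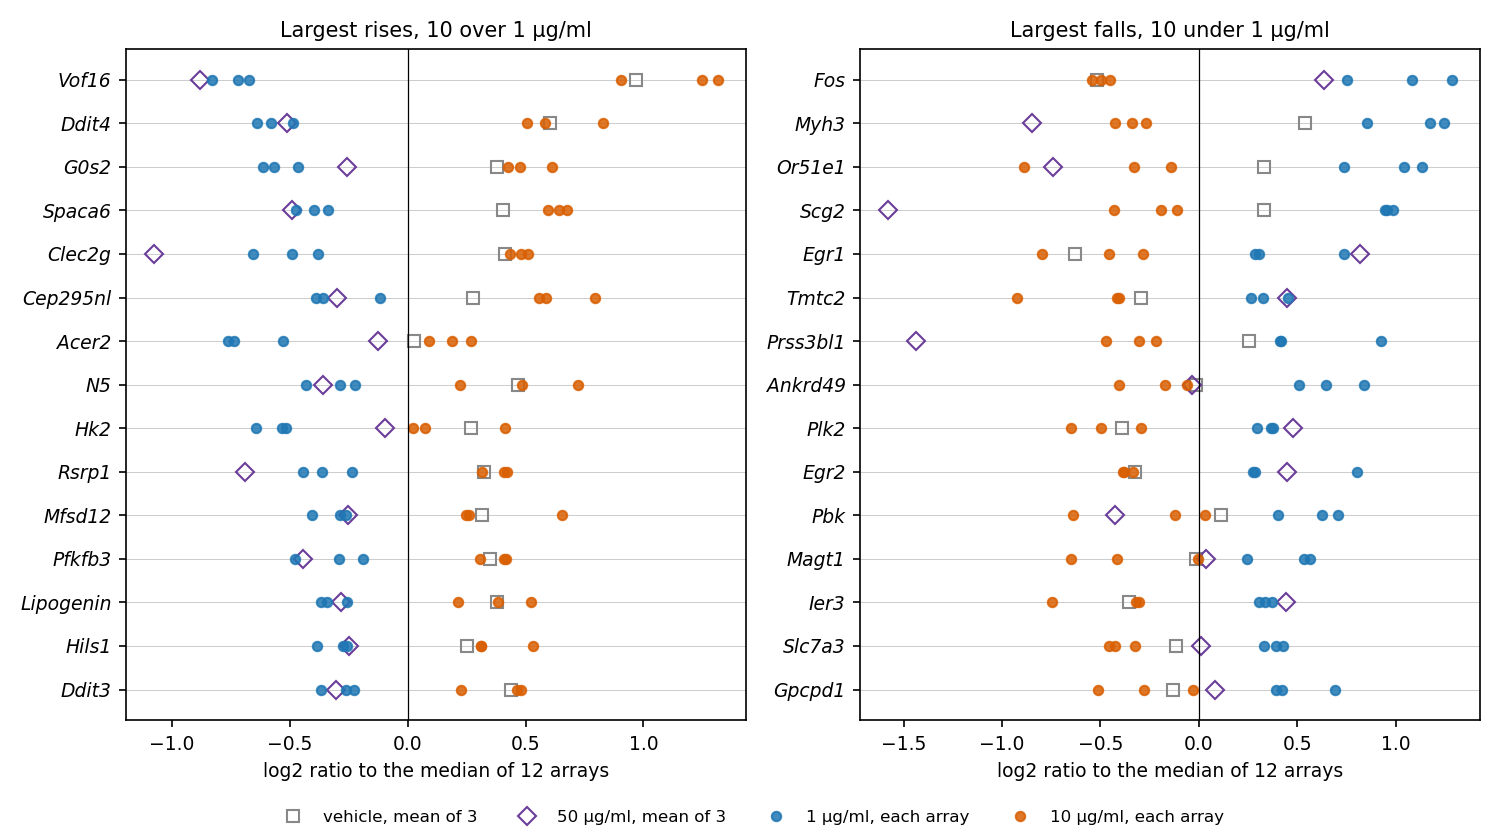
Log2 ratio to the median of the 12 arrays (horizontal axis) for the 15 largest rises and the 15 largest falls at 10 over 1 µg/ml; filled circles are single arrays, blue at 1 and orange at 10 µg/ml, and open symbols are means of 3 arrays, squares for the vehicle and diamonds for 50 µg/ml. In Vof16, Ddit4 and Fos the vehicle mean lies with the arrays of 10 µg/ml, and the mean at 50 µg/ml is on the side of 1 µg/ml.

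Of 44 immediate early genes measured, 11 fell, 3 rose and 30 did not pass, against 9.20% of all genes lower and 4.77% higher. The median difference was -0.12, against 0.01 over all genes. All lists were chosen with earlier results of these data known, and 242 of their 1086 distinct measured genes passed. The genes tested also include 1239 olfactory and vomeronasal receptor genes, of which 0.646% were called. A list's share above that of all genes, here and below, is therefore no independent support. The zinc finger factors Egr1 and Egr2 fell by 0.95 ± 0.13 and 0.82 ± 0.13. Egr1 stood at 0.30, 0.74 and 0.28 at 1 µg/ml and at -0.46, -0.28 and -0.80 at 10 µg/ml. The highest array of Egr1 at the lower dose was replicate 2, which was also the highest for Fos, Egr2 (0.81 against 0.28 and 0.29), Jun (0.57 against 0.36 and 0.25) and Nr4a1 (0.51 against 0.25 and 0.11).

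The polo-like kinase Plk2 stood at 0.37, 0.38 and 0.29 at 1 µg/ml and at -0.29, -0.65 and -0.50 at 10 µg/ml and fell by 0.83 ± 0.09 (adjusted p = 0.00041). Ier3, a regulator of cell survival, fell by 0.79 ± 0.11, the orphan nuclear receptor Nr4a1 fell by 0.67 ± 0.11, and Ptgs2, the inducible cyclooxygenase, fell by 0.63 ± 0.11. Jun fell by 0.54 ± 0.08, the growth factor gene Hbegf fell by 0.50 ± 0.08 and the matricellular protein gene Ccn1 fell by 0.35 ± 0.05. Egr3 (-0.34) also passed, but not without 10 µg/ml replicate 2, 1 µg/ml replicate 1 or 1 µg/ml replicate 2 (adjusted p = 0.0529, 0.069 and 0.0612). The list was not uniform. Ccn2, the relative of Ccn1, rose by 0.33 ± 0.05, from -0.14, -0.15 and -0.12 to 0.12, 0.29 and 0.19, and Mafk, a small Maf factor, rose by 0.28 ± 0.05. Junb (0.23 ± 0.07) passed too, a call it lost in 8 of the 12 omissions. Myc (-0.08), Atf3 (-0.14), Srf (-0.01), Fosl1 (-0.01) and Klf6 (-0.06) did not pass. Among the 12 omissions of an array, the number of lower members with an array of these doses left out was 10 to 12.

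Inhibitors that MAP kinase signalling induces against itself had 3 higher and 3 lower of 21 (median 0.03), or 28.6% called against 14.0% of all genes. Dusp1, a phosphatase that inactivates MAP kinases in the nucleus, fell by 0.60 ± 0.08, from 0.56, 0.39 and 0.38 to -0.21, -0.11 and -0.15 (adjusted p = 0.00165). The arrays of the doses did not overlap, and the vehicle mean was -0.15. The other calls were Dusp10 (-0.27) and Dusp5 (-0.29) below and Spry2 (0.24), Spred3 (0.32) and Dusp4 (0.27) above 0. None of these 5 kept the call in every omission: Spry2 lost it without 1 µg/ml replicate 3 (adjusted p = 0.0523) and Dusp10 without 10 µg/ml replicate 2 or 1 µg/ml replicate 1 (0.056 and 0.0558). Spred3 lost it without 10 µg/ml replicate 2, 1 µg/ml replicate 1 or 1 µg/ml replicate 3 (0.057, 0.0844 and 0.0714). Dusp4 also lost it without 10 µg/ml replicate 1 (0.0826), and Dusp5 in 9 of the 12 omissions. The Erk phosphatase Dusp6 (-0.11) and the adaptor Errfi1 (0.01) did not pass.

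**Figure D3:**
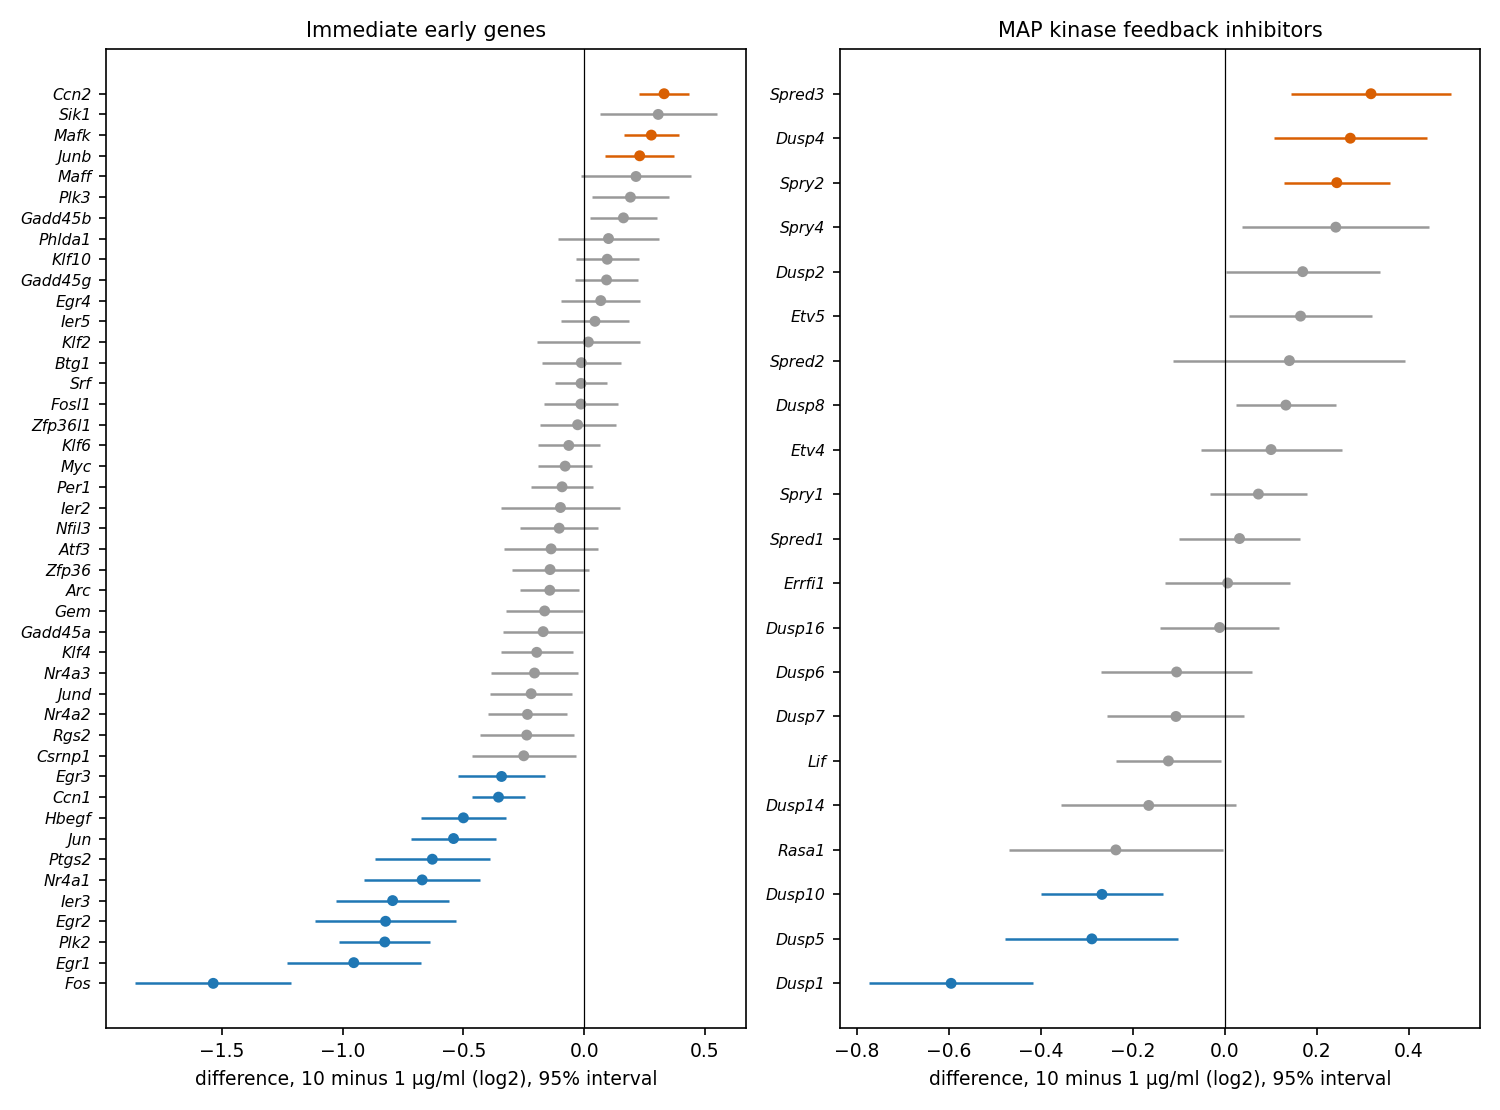
Difference between 10 and 1 µg/ml (horizontal axis, log2, point with its 95% interval from limma, 3 arrays per dose) for the 44 measured immediate early genes and the 21 measured MAP kinase feedback inhibitors; orange genes rose, blue genes fell and grey genes did not pass. Fos is farthest out at -1.54, and 11 genes of the first list and 3 of the second are blue.

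Genes that respond to glucocorticoids and fasting were often changed but in both directions, with 8 higher and 6 lower of 30. That is 46.7% called, against 14.0% of all genes, and the median was 0.00. Ddit4 and G0s2 rose with this list, and Dusp1 and Nfkbia, the inhibitor of NF-kappaB, fell. Nfkbia fell by 0.38 ± 0.05, from 0.18, 0.12 and 0.17 to -0.22, -0.12 and -0.32. Without 10 µg/ml replicate 2 the list had 4 higher and 4 lower, and without 1 µg/ml replicate 3 it had 3 and 4. Pdk4, a kinase that shuts off pyruvate oxidation in fasting, stood at 0.40, 0.70 and 0.29 at 1 µg/ml and at 0.23, 0.03 and -0.03 at 10 µg/ml. Its difference of -0.39 ± 0.12 missed the threshold (adjusted p = 0.0507).

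Hypoxia responsive genes had 6 higher and 1 lower of 33 (median 0.09), or 21.2% called against 14.0% of all genes. Besides Ddit4, the bifunctional enzyme gene Pfkfb3, which sets the level of the glycolytic activator fructose 2,6-bisphosphate, rose by 0.70 ± 0.10. It stood at -0.29, -0.19 and -0.48 at 1 µg/ml and at 0.42, 0.31 and 0.41 at 10 µg/ml, without overlap. Bhlhe40, a repressor of the circadian clock, rose by 0.59 ± 0.09 and Ankrd37 by 0.37 ± 0.07. The vasodilator peptide gene Adm, named after its value was seen, rose by 0.43 ± 0.09 a call lost when 1 µg/ml replicate 3 was omitted (adjusted p = 0.0541). The number of higher members was 5 to 7 with an array of these doses left out. Glycolysis and glucose uptake had 4 higher and 3 lower of 33 (median 0.07), or 21.2% called against 14.0% of all genes. The higher ones were Hk2, Pfkfb3, Aldoa (0.23 ± 0.05) and Pfkl (0.28). The call of Pfkl was lost when 10 µg/ml replicate 2, 1 µg/ml replicate 2 or 1 µg/ml replicate 3 was omitted (adjusted p = 0.0853, 0.0722 and 0.0902). The 3 lower members of the glycolysis list were 0 without 10 µg/ml replicate 2, 1 µg/ml replicate 1 or 1 µg/ml replicate 3.

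Genes of amino acid stress and of the unfolded protein response included 6 higher and 16 lower of 42, with a median of -0.13. That is 52.4% called, against 14.0% of all genes. Ddit3 and Trib3, which encode the stress factor CHOP and a pseudokinase that CHOP induces, rose by 0.68 ± 0.07 and 0.49 ± 0.06. Ddit3 stood at -0.26, -0.37 and -0.23 at 1 µg/ml and at 0.23, 0.48 and 0.46 at 10 µg/ml. Several genes of amino acid supply moved the other way. Slc7a3 fell by 0.79 ± 0.10, from 0.39, 0.33 and 0.43 to -0.42, -0.33 and -0.45, and Cth, which makes cysteine from cystathionine, fell by 0.56 ± 0.07. Psat1 of serine synthesis (-0.54 ± 0.08) and the endoplasmic reticulum cochaperone gene Dnajb9 (-0.61 ± 0.08), both named after their values were seen, fell too. Chac1, looked at in the same way, rose by 0.63 ± 0.16 (limma, adjusted p = 0.0222). Its arrays at 10 µg/ml were 0.20, 0.75 and 0.11, the highest being replicate 2, and its call under the omissions is not given here. The list had 3 higher and 11 lower members without 10 µg/ml replicate 2 and 3 and 9 without 1 µg/ml replicate 3.

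Heat shock proteins and their cochaperones had 1 higher and 9 lower of 27 (median -0.08), or 37.0% called against 14.0% of all genes. Dnajb4, a cochaperone of Hsp70, stood at 0.43, 0.36 and 0.38 at 1 µg/ml and at -0.06, -0.19 and -0.01 at 10 µg/ml and fell by 0.48 ± 0.06. Stip1, the adaptor between Hsp70 and Hsp90, fell by 0.35 ± 0.06. The 9 lower members were 3 without 10 µg/ml replicate 2 and 2 without either of 1 µg/ml replicates 1 and 3. Among antioxidant and metal response genes 5 rose and 6 fell of 41 (median 0.00), or 26.8% called against 14.0% of all genes. The metallothionein gene Mt2A rose by 0.67 ± 0.10, from -0.48, -0.59 and -0.55 to 0.00, 0.29 and 0.11, the ferritin heavy chain gene Fth1 rose by 0.35 ± 0.07, and the cystine transporter gene Slc7a11 fell by 0.62 ± 0.09. Of 36 genes that metabolise or export foreign compounds 5 fell and 0 rose (13.9%, against 14.0% of all genes in either direction). Aldh1a1, which oxidises retinal to retinoic acid, stood at 0.59, 0.67 and 0.63 at 1 µg/ml and at -0.20, -0.07 and -0.06 at 10 µg/ml and fell by 0.74 ± 0.05 (adjusted p = 1.57e-05). The arrays of each dose lay close together, and the mean at 50 µg/ml was lower still at -1.44. Ephx1, the microsomal epoxide hydrolase, fell by 0.46 ± 0.09. The counts of the antioxidant list were 3 and 3 without 10 µg/ml replicate 2 and 2 and 3 without 1 µg/ml replicate 3 and 3 and 2 without 1 µg/ml replicate 1. The 5 lower genes of foreign compound metabolism were 3, 2 and 3 under the same omissions.

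Mitosis and spindle checkpoint genes had 18 lower and 0 higher of 36 (median -0.22), against 9.20% of all genes lower. Their lower share was the largest in a single direction among the 39 lists. Array medians of this list were 0.18, 0.08 and 0.21 at 1 µg/ml and -0.08, -0.15 and 0.01 at 10 µg/ml. The lowest of these 6 medians was that of 10 µg/ml replicate 2. The kinetochore genes Ndc80 and Nuf2, whose products tie chromosomes to spindle microtubules, fell by 0.68 ± 0.11 and 0.51 ± 0.08. Ndc80 stood at 0.60, 0.36 and 0.55 at 1 µg/ml and at -0.04, -0.45 and -0.02 at 10 µg/ml. The spindle assembly factor Tpx2 fell by 0.39 ± 0.06, the kinesin Kif23 of the midbody fell by 0.33 ± 0.06, and the checkpoint kinase Bub1, named after its value was seen, fell by 0.50 ± 0.11. The 18 lower members became 10 without 10 µg/ml replicate 2, 12 without 1 µg/ml replicate 1 and 11 without 1 µg/ml replicate 3.

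DNA replication and G1/S genes had 1 higher and 6 lower of 36 (median -0.11), or 19.4% called against 14.0% of all genes. The primase subunit Prim1 fell by 0.55 ± 0.10, from 0.35, 0.21 and 0.39 to -0.24, -0.47 and 0.00. The count of lower members was 1 to 3 without 10 µg/ml replicate 1, 10 µg/ml replicate 2, 1 µg/ml replicate 1 or 1 µg/ml replicate 3. Targets of p53 and of growth arrest had 2 higher and 6 lower of 25 (median -0.15), or 32% called against 14.0% of all genes. Tp53inp1 fell by 0.60 ± 0.09 and the death receptor gene Fas fell by 0.25 ± 0.05, while the nuclease gene Aen rose by 0.32 ± 0.06. Plk2, counted above among immediate early genes, is also on this list. Without 1 µg/ml replicate 1 this list had 3 lower members.

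**Figure D4:**
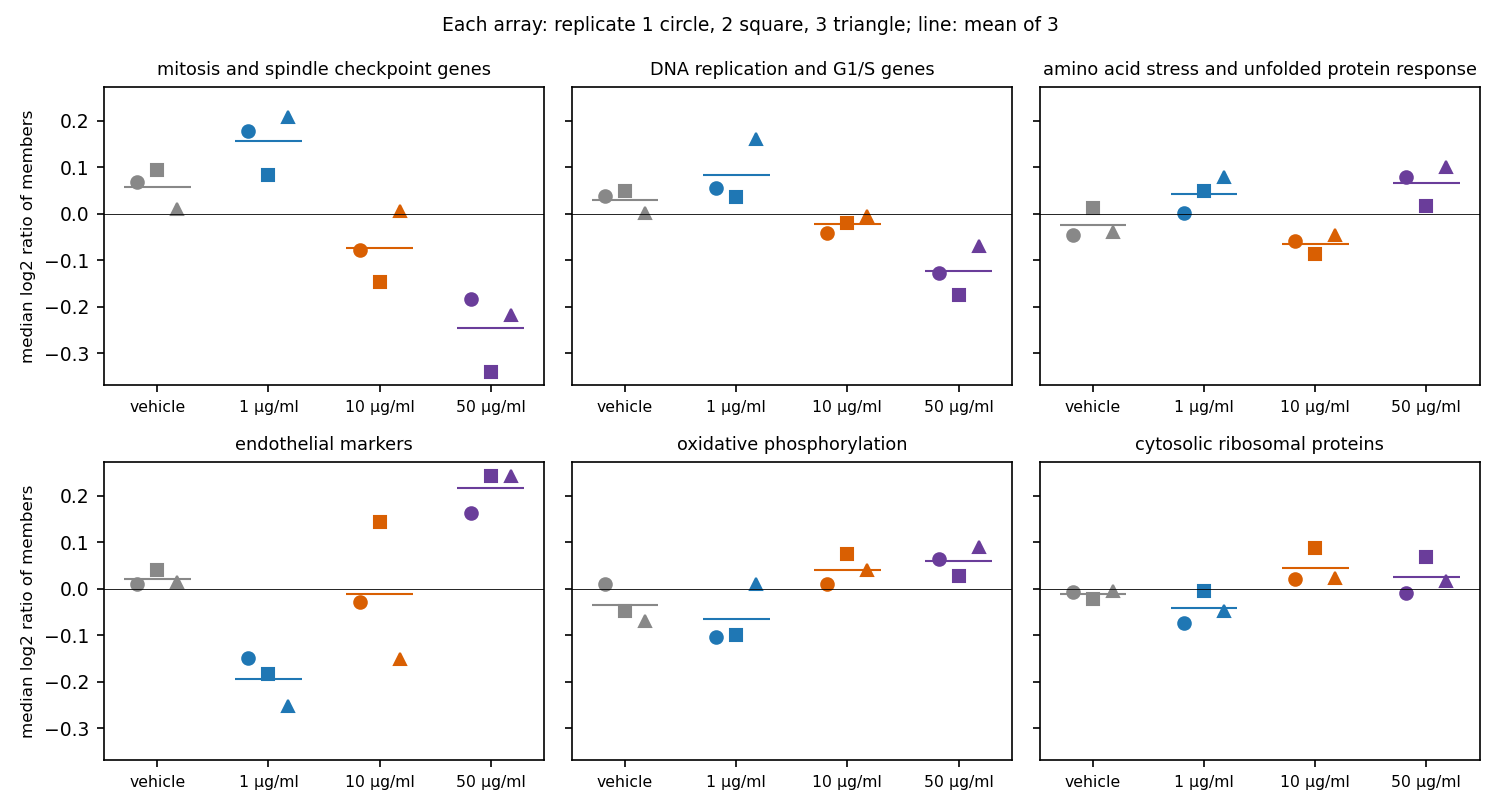
Median log2 ratio of the members of 6 lists in each of the 12 arrays (vertical axis), with circles, squares and triangles for replicates 1, 2 and 3 and a line at the mean of each group of 3. The mitosis list lies at 0.08 to 0.21 at 1 µg/ml and at -0.15 to 0.01 at 10 µg/ml, and in the endothelial list the array of 10 µg/ml replicate 2 is the highest of its group at 0.14.

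Sarcomere and Z-disc genes had 5 higher and 1 lower of 32 (median 0.04), or 18.8% called against 14.0% of all genes. Cardiac troponin I (Tnni3) stood at -0.28, -0.23 and -0.24 at 1 µg/ml and at 0.13, 0.32 and 0.17 at 10 µg/ml and rose by 0.46 ± 0.07 (adjusted p = 0.00313). The ventricular light chain Myl2 rose by 0.39 ± 0.06, the intermediate filament gene Des by 0.35 ± 0.06 and troponin C (Tnnc1) by 0.35 ± 0.07. The main myosins of the heart did not pass, at 0.04 for Myh6 (95% interval -0.14 to 0.22) and 0.06 for Myh7 (-0.12 to 0.24).

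Genes of the fetal heart and of hypertrophy had 4 higher and 5 lower of 32 (median 0.02), or 28.1% called against 14.0% of all genes. Edn1, the precursor of the vasoconstrictor endothelin, stood at 0.42, 0.83 and 0.40 at 1 µg/ml and at -0.01, 0.10 and 0.01 at 10 µg/ml and fell by 0.52 ± 0.10. Nppb, the natriuretic peptide B gene, rose by 0.34 ± 0.09 (adjusted p = 0.033), a call that was lost without 10 µg/ml replicates 2 or 3 and without 1 µg/ml replicates 2 or 3 (adjusted p = 0.116, 0.0611, 0.0903 and 0.109). Its companion Nppa stood at 0.03 and did not pass (-0.08 to 0.13). The list had 1 higher and 3 lower members without 10 µg/ml replicate 2, 2 and 5 without 1 µg/ml replicate 1 and 2 and 3 without 1 µg/ml replicate 3. Calcium cycling genes (3 and 3 of 35), ion channels (1 and 2 of 31) and genes of the intercalated disc (2 and 0 of 21) were called at 17.1%, 9.68% and 9.52%, against 14.0% of all genes, and the calcium cycling and ion channel lists had 0 calls each without 10 µg/ml replicate 2 or without 1 µg/ml replicate 1. The disc list had 1 call without 10 µg/ml replicate 2 or 1 µg/ml replicate 3 and 0 without 1 µg/ml replicate 1, and the calcium list 1 without 1 µg/ml replicate 3. The calcium release channel Ryr2 (0.02, -0.14 to 0.19), the calcium pump Atp2a2 (-0.03, -0.14 to 0.07) and connexin 43 (Gja1, 0.00, -0.28 to 0.27) did not pass.

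Oxidative phosphorylation genes had 11 higher and 1 lower of 62 (median 0.11), or 19.4% called against 14.0% of all genes. Array medians were -0.10, -0.10 and 0.01 at 1 µg/ml and 0.01, 0.07 and 0.04 at 10 µg/ml. The complex III subunit Uqcr11 stood at -0.18, -0.23 and -0.19 at 1 µg/ml and at 0.00, 0.33 and 0.08 at 10 µg/ml and rose by 0.34 ± 0.07. The complex I subunit Ndufs1, an iron-sulphur protein, went the other way at -0.34 ± 0.08, a call lost without 10 µg/ml replicate 2, 1 µg/ml replicate 1 or 1 µg/ml replicate 3 (adjusted p = 0.0512, 0.0523 and 0.0671). The 11 higher members were 3 without 10 µg/ml replicate 2 and 2, 5 and 6 without 1 µg/ml replicates 1, 2 and 3. Cytosolic ribosomal protein genes had 6 higher and 0 lower of 66 (9.09% called, against 14.0% of all genes), with a median of 0.08, and Rpl13 rose by 0.31 ± 0.06 on the mean of its 7 probe sets. That count was 3 without 10 µg/ml replicate 2 and 1 without either of 1 µg/ml replicates 1 and 3, and 10 without 10 µg/ml replicate 3. The array of 10 µg/ml replicate 2 was the highest of the 6 arrays for Uqcr11 and, at 0.30, for Rpl13.

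The tricarboxylic acid cycle list, which includes cytosolic relatives of its enzymes, had 0 higher and 7 lower of 24 (median -0.11). That is 29.2% called, against 14.0% of all genes. The malic enzyme Me2 fell by 0.31 ± 0.06, from 0.22, 0.16 and 0.16 to 0.00, -0.22 and -0.16, and the cytosolic aconitase Aco1 fell by 0.23 ± 0.05. The 7 lower members were 4 and 3 without 10 µg/ml replicates 1 and 2 and 2 without either of 1 µg/ml replicates 1 and 3. Among 19 genes of the cholesterol pathway 1 rose and 4 fell (median -0.14), or 26.3% called against 14.0% of all genes. Idi1, the isopentenyl diphosphate isomerase, fell by 0.61 ± 0.11, while Srebf2, which encodes the transcription factor of the pathway, rose by 0.30 ± 0.06. Without 10 µg/ml replicate 2 or 1 µg/ml replicate 1 there were 2 lower members of that list, and 1 without 1 µg/ml replicate 3, while there were 6 without 1 µg/ml replicate 2 and 7 without 10 µg/ml replicate 3.

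Of 40 PPAR receptors and target genes 3 were higher and 1 lower, or 10.0% against 14.0% of all genes, with a median of 0.01. The receptors Ppara (0.00, 95% interval -0.21 to 0.21), Ppard (0.05, -0.06 to 0.16) and Pparg (0.07, -0.09 to 0.24) did not pass. Their partner Rxra rose by 0.20 ± 0.04, from -0.15, -0.21 and -0.13 to 0.01, 0.04 and 0.04. The carnitine transferases Cpt1a (-0.10, -0.23 to 0.03) and Cpt1b (0.10, -0.14 to 0.33) and the secreted lipase inhibitor Angptl4 (0.06, -0.15 to 0.26) did not pass. Mitochondrial fatty acid oxidation had 2 higher and 1 lower of 28 (10.7% called, median -0.06) and peroxisome genes 2 and 5 of 29 (24.1% called, median -0.04), beside the same 14.0%. The peroxisome biogenesis factors Pex3 and Pex26 moved apart, Pex3 falling by 0.48 ± 0.09 and Pex26 rising by 0.40 ± 0.08. Lipid droplet, lipase and fatty acid synthesis genes had 2 higher, G0s2 among them, and 3 lower of 31 (16.1% called). Without 10 µg/ml replicate 2 the PPAR list had 1 call, the mitochondrial list 0, the peroxisome list 3 and the lipid droplet list 1. Without 1 µg/ml replicate 3 these counts were 1, 0, 3 and 2, and without 10 µg/ml replicate 3 they were 8, 6, 9 and 6.

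Extracellular matrix genes had 8 higher and 0 lower of 35 (median 0.10), or 22.9% called against 14.0% of all genes. Fibulin 1 (Fbln1) stood at -0.53, -0.45 and -0.53 at 1 µg/ml and at 0.02, 0.12 and -0.02 at 10 µg/ml and rose by 0.55 ± 0.07 (adjusted p = 0.00133). The arrays did not overlap, and the mean at 50 µg/ml was 0.93. The laminin chain Lama5 rose by 0.37 ± 0.06 and the collagen chain Col4a1 of basement membrane by 0.36 ± 0.07. The fibrillar collagen Col1a1 stood at 0.12 and did not pass. The 8 higher members were 5 without 10 µg/ml replicate 2 and 4 without 1 µg/ml replicate 1. Matrix proteases and their inhibitors had 5 higher and 4 lower of 33, or 27.3% called against 14.0% of all genes. The gelatinase Mmp9 rose by 0.60 ± 0.10, from -0.66, -0.50 and -0.60 to 0.03, 0.17 and -0.15, while Mmp2 stood at 0.01 and did not pass. The inhibitor Timp1 (0.28) lost its call without 10 µg/ml replicate 2, 1 µg/ml replicate 1 or 1 µg/ml replicate 2 (adjusted p = 0.0902, 0.0887 and 0.0622). That list had 2 higher members without 10 µg/ml replicate 2 or without 1 µg/ml replicate 1, 2 or 3, and 1, 1, 4 and 0 lower ones. TGF-beta and BMP signalling had 6 higher and 6 lower of 34 (median -0.02), or 35.3% called against 14.0% of all genes. The BMP antagonist Grem1 fell by 0.50 ± 0.09, while the BMP target Id1 and the inhibitory Smad7 rose by 0.25 ± 0.05 and 0.40 ± 0.08. The 12 calls of this list were 7 without 10 µg/ml replicate 2 and 7 without 1 µg/ml replicate 3.

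Inflammatory and NF-kappaB genes had 6 higher and 2 lower of 45 (median 0.05), or 17.8% called against 14.0% of all genes. Socs3, the feedback inhibitor of cytokine receptors, stood at -0.39, -0.27 and -0.40 at 1 µg/ml and at 0.27, 0.30 and 0.28 at 10 µg/ml and rose by 0.64 ± 0.05 (adjusted p = 2.29e-05). Its 3 arrays at the higher dose lay within 0.1 of each other. The monocyte attractant Ccl7 rose by 0.62 ± 0.10, from -0.56, -0.92 and -0.65 to -0.04, 0.02 and -0.25, and Ccl4 by 0.43 ± 0.07. Interferon response and antigen presentation genes had 1 higher and 3 lower of 36, or 11.1% called against 14.0% of all genes. Irf9, the subunit of the interferon-stimulated factor that binds DNA, fell by 0.50 ± 0.07. The interferon list had 1 call without 10 µg/ml replicate 2, 2 without 1 µg/ml replicate 1 1 without 1 µg/ml replicate 3 and 7 without 10 µg/ml replicate 3.

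Markers of other cell types that a culture of a newborn heart can hold were read beside these lists. Endothelial markers had 6 higher and 0 lower of 16 (median 0.17), or 37.5% called against 14.0% of all genes. Array medians were -0.15, -0.18 and -0.25 at 1 µg/ml and -0.03, 0.14 and -0.15 at 10 µg/ml, the highest being 10 µg/ml replicate 2. The junctional cadherin Cdh5 rose by 0.62 ± 0.12, from -0.50, -0.64 and -0.83 to 0.03, 0.18 and -0.32, and the receptor Tie1 and the transcription factor Sox18 rose by 0.55 ± 0.11 and 0.48 ± 0.09. In such mixed cultures a change in the number of cells of a type and a change in RNA per cell cannot be told apart. The 6 higher markers were 3 without 10 µg/ml replicate 2 or 1 µg/ml replicate 3, and 4 without 10 µg/ml replicate 1 or 1 µg/ml replicate 2. Whether endothelial cells had a part in the rises of Col4a1 and Lama5, or in the fall of Edn1, was not tested.

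Cardiomyocyte markers had 1 higher (Tnni3) and 0 lower of 14, or 7.14% called against 14.0% of all genes. Their array medians were -0.07 to 0.00 at 1 µg/ml and 0.02 to 0.05 at 10 µg/ml. Troponin T (Tnnt2) and cardiac actin (Actc1) each stood at 0.09 and did not pass. Macrophage and leukocyte markers had 1 higher and 5 lower of 32 (median 0.04), or 18.8% called against 14.0% of all genes. Cx3cr1, the fractalkine receptor, fell by 0.61 ± 0.09 and the integrin chain Itgb2 rose by 0.38 ± 0.08. Array medians of that list overlapped, at 0.09, 0.06 and -0.16 for 1 µg/ml and -0.06, 0.11 and 0.01 for 10 µg/ml. The 5 lower markers were 1 without 10 µg/ml replicate 2 or 1 µg/ml replicate 1 and 2 without 10 µg/ml replicate 1 or 1 µg/ml replicate 2. Fibroblast markers (3 higher and 1 lower of 22), smooth muscle and pericyte markers (1 and 2 of 17), epicardial markers (1 and 1 of 13), neuronal and glial markers (0 and 1 of 19, the call being Scg2) and erythroid markers (0 and 0 of 11) had medians between -0.07 and 0.06 and were called at 0% to 18.2%, against 14.0% of all genes. The fibroblast list and the smooth muscle list had 1 call each, and the epicardial list 0, without 10 µg/ml replicate 2, 1 µg/ml replicate 1 or 1 µg/ml replicate 3. The 16 circadian clock genes had 1 call in each direction, Bhlhe40 above and Nr1d1 (-0.29) below, or 12.5% called against 14.0% of all genes. The call of Nr1d1 was lost without 10 µg/ml replicates 1 or 3 and without 1 µg/ml replicates 1 or 2.

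**Figure D5:**
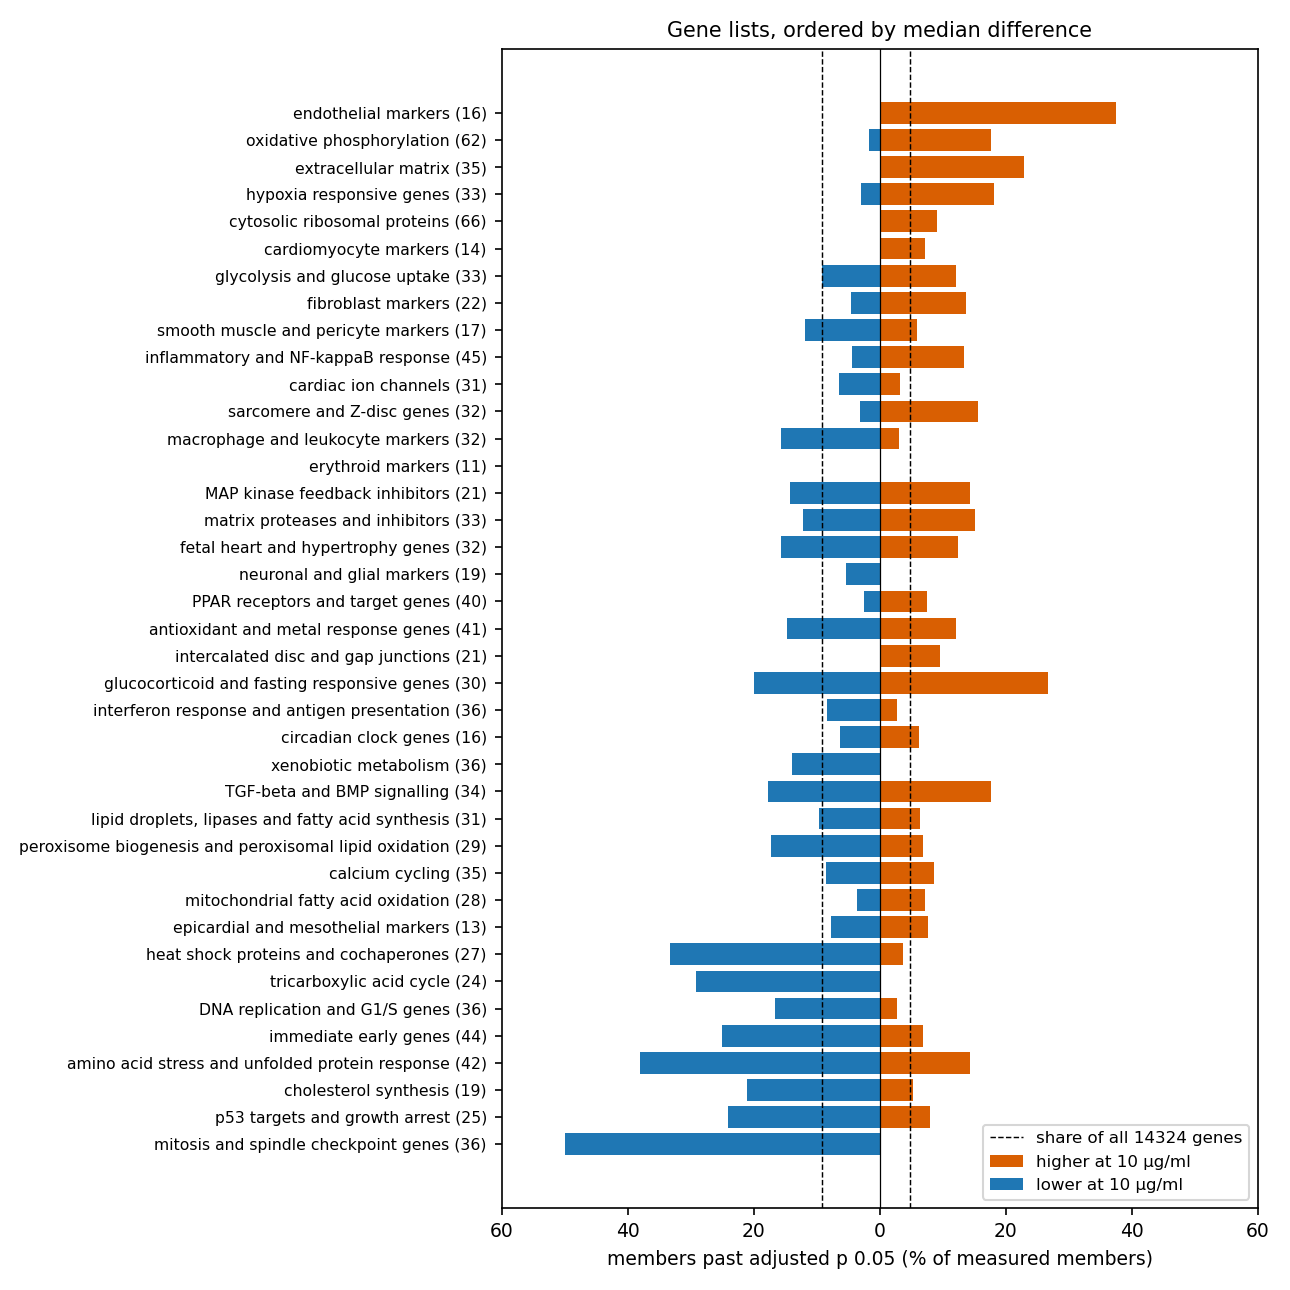
Share of the measured members of each of 39 gene lists past adjusted p 0.05 (horizontal axis, percent; number measured in brackets), orange to the right for genes higher and blue to the left for genes lower at 10 than at 1 µg/ml; dashed lines mark 4.77% and 9.20%, the shares over all genes. Lists are in order of their median difference, and the endothelial list is at the top at 0.17 and the mitosis list at the bottom at -0.22.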

How the data were processed

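RNA of 12 cultures was hybridised to Affymetrix rat gene arrays, from 5 µg of total RNA each per the labels' protocols. The deposited values are linear ratios, which the authors made with RMA per the submitters' processing notes (version not given in the sources used here); that each is relative to the probe set's median over the 12 arrays was found from the values. The deposited ratios, 0.165 to 12.2, were converted to log2. Of 27342 probe sets 15097 had 1 gene symbol and entered 14324 genes as the mean over a gene's probe sets; 323 with several symbols and 11922 with none did not. Over all probe sets 2722 (9.96%) passed.

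The 4 group means of the 12 arrays were estimated in one model, using limma 3.58.1 under R 4.3.3 (8 residual degrees of freedom, constant prior variance), with two-sided tests, Benjamini-Hochberg adjustment over all genes and a threshold of 0.05. The code of the fit was run on simulated data with independent normal noise, of equal spread in every group for a gene. Such data hold no outlying array, so the run does not bear on the calls made here. The median residual SD was 0.08, and the number of arrays limits precision. With 3 arrays per dose, 0.1 is the smallest p an exact permutation test allows. Median ratios of the arrays were 0.994 to 1.01.

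Named were the 15 largest rises and falls with separate groups (symbols starting with LOC, RGD, Mir or Olr left out), up to 4 members of each of 39 lists by smallest p (all of the first 2 lists), and a panel of 27 genes, of which 26 were measured. Members and lists were chosen with earlier results of these data known. Lists held 1086 distinct measured genes, of which 242 passed. Alternatives were another quantile normalization, median centring, 2 other priors, array weights, the 6 arrays alone, a replicate block, other uses of several probe sets and omission of each array. Counts of list members with an array left out were added after seeing the data. No detection call was analysed here.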

Additional observations from a re-analysis of the deposited data

How the results depend on the processing

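The 2001 changed genes became 1842 after another quantile normalization, 1951 after median centring, 2002 with a prior that followed the mean and 1931 with a robust prior, with 32.6% to 35.2% of calls higher. Array weights gave 3155 genes (1110 higher, 2045 lower) and 4353 probe sets. With only the 6 arrays compared in the fit there were 697 genes (215 higher, 482 lower) and 637 probe sets, with fewer arrays to estimate the spread. With an array left out the genes numbered 820 to 2694 (276 to 909 higher, 542 to 1785 lower) and the probe sets 959 to 3760. Leaving out an array of the vehicle or of 50 µg/ml, which changes only the spread, gave 1637 to 2164 genes. The deviations of same-numbered arrays of the 2 doses correlated at -0.084, 0.104 and 0.274 for replicates 1, 2 and 3. These 3 values differ in sign and cannot tell whether same-numbered cultures were paired. With the replicate block 2155 genes passed (702 higher, 1453 lower) and 2886 probe sets. Of 184 genes named or looked at that passed, 103 kept the call in all 12 omissions and 89 in all 20 alternatives, the 30 leading genes among them, while 63 lost it without 10 µg/ml replicate 2. No gene that passed changed sign. Of 780 list medians under the alternatives 39 moved by more than the spread between arrays.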

Other observations

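The genes and families of this section were picked after their values were seen. Of 4 CDC-like kinases, which phosphorylate SR proteins, 3 were higher at 10 than at 1 µg/ml and 0 lower, against 4.77% of all genes higher. Clk1 stood at -0.26, -0.21 and -0.27 at 1 µg/ml and at 0.49, 0.21 and 0.47 at 10 µg/ml, and rose by 0.64 ± 0.10 (limma, adjusted p = 0.00313). Its vehicle mean was 0.43 and its mean at 50 µg/ml -0.78. The 3 calls were 1 without 1 µg/ml replicate 3 and 2 without 10 µg/ml replicate 1, 10 µg/ml replicate 3, 1 µg/ml replicate 1 or 1 µg/ml replicate 2. Of 11 SR splicing factors (Srsf) 3 fell, 0 rose and 8 did not pass, against 9.20% of all genes lower, a count of lower members that was 3 in each omission of an array of these doses. Srsf5 stood at 0.30, 0.29 and 0.30 at 1 µg/ml and at -0.25, -0.39 and -0.31 at 10 µg/ml, and fell by 0.61 ± 0.05 (adjusted p = 8.04e-05). Srsf3 and Srsf6 fell by 0.53 ± 0.08 and 0.37 ± 0.05. The other splicing genes looked at, singly and not as a family, were Luc7l3 (0.61 ± 0.08), Luc7l (0.21 ± 0.05) and Rsrp1 (0.73 ± 0.07), which rose, Tra2b (-0.52 ± 0.11) and Ccnl1 (-0.49 ± 0.11), which fell, and Luc7l2 (0.04), Tra2a (-0.30) and Ccnl2 (0.12), which did not pass. Luc7l lost its call without 1 µg/ml replicate 3 (adjusted p = 0.0509).

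Of 43 translation initiation factor genes (Eif), also picked afterwards, 12 were lower and 0 higher, with a median of -0.11, against 9.20% of all genes lower. That count was 4 without 10 µg/ml replicate 2, 3 without 1 µg/ml replicate 1 and 1 without 1 µg/ml replicate 3. Of 1239 olfactory and vomeronasal receptor genes 6 were higher and 2 lower, Or51e1 among the latter, or 0.646% called against 14.0% of all genes. The RNase gene Zc3h12a, a brake on inflammatory RNAs, stood at -0.36, -0.58 and -0.48 at 1 µg/ml and at 0.14, 0.39 and -0.02 at 10 µg/ml, and rose by 0.64 ± 0.09 (adjusted p = 0.00165).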
